A study of Mus musculus with 16 samples.

Results

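The secreted Wnt ligands, their Frizzled (Fzd) receptors and the 2 families of secreted inhibitors, Sfrp and Dkk, were followed in RNA-seq of mouse dorsal skin. The members were all rows of the count table whose symbol began with Wnt, Fzd, Sfrp or Dkk followed directly by a digit. This gave 37 of 23282 rows, namely 19 Wnt, 10 Fzd, 4 Sfrp and 4 Dkk genes. Counts were present for 33 of them, and 29 passed the filter on low counts and were tested. The 4 genes without a single count in 16 libraries were Wnt1, Wnt8a, Wnt8b and Dkk4.

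Male wild-type C57BL/6N mice, 3 weeks old on arrival and adapted for 1 week, formed 4 groups with 4 skin libraries each. The Cont mice ate normal chow. The LowAhR mice ate a diet low in ligands of the aryl hydrocarbon receptor (AhR) for 12 weeks, on paper bedding free of such ligands. The LowAhR+AD mice ate that diet and, from 2 weeks on, also had 1% DNCB (2,4-dinitrochlorobenzene, a contact sensitizer used to model atopic dermatitis, AD) in acetone and olive oil painted on the back 2 times a week for 10 weeks. The LowAhR+AD+BJ mice had the same diet and DNCB and received 1 g/kg/day of BJIKT, a water extract of a herbal formula, by oral gavage. No group combined DNCB with normal chow, so an effect of DNCB and one that needs the low-ligand diet cannot be told apart.

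Wnt proteins are lipid-modified signals that act over short distances. In the canonical branch a Wnt binds a Frizzled receptor with the co-receptor Lrp5 or Lrp6, which stabilises β-catenin and switches on genes through TCF/LEF factors. Sfrp proteins carry a Frizzled-like domain and bind Wnts outside the cell, and Dkk proteins other than the divergent Dkk3 bind the Lrp co-receptors. In skin the pathway is best known for starting hair follicles and driving their growth phase, and for keeping epidermal stem cells.

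The whole libraries held 7080508 to 8773876 counts in the Cont and LowAhR groups and 10614393 to 13467477 in both DNCB groups. Krt5 and Krt14, the defining keratins of basal epidermis, were detected in every library. LowAhR+AD replicate 1 stood apart: 38.2% of the genes predicted at 20 to 40 counts had 0 counts there, against 0.798% to 13.6% in the other 15 libraries, so the values it moved most are also given without it. Levels below are CPM, the counts scaled to library size with TMM factors, as mean ± SD over 4 libraries. Krt14 was 596 to 1027 CPM in the libraries without DNCB and 2294 to 4866 CPM in those with it. Krt5 was 6185 CPM in LowAhR+AD replicate 1 and 1530 to 2132 CPM in the rest of that group. Differences are log2 fold changes ± SE from edgeR's quasi-likelihood test on all 16 libraries, and calls were made where the p-value, adjusted by Benjamini-Hochberg over the 14854 rows tested, was under 0.05.

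Promoters are shown for the called members that had an entry in the RefSeq promoter table (GRCm38.p6), because the study turns on the AhR, whose core recognition letters are GCGTG, and Wnt signalling acts through the TCF/LEF letters CTTTGA. Each window runs from 250 bases before to 50 after the start used by that promoter table, 5′ to 3′ on the gene's strand. Any match to either motif on either strand is in capitals. That start can differ from the GENCODE gene start given below: for Wnt4 the GENCODE start, 137277489, lies nearer the 5′ end of the window.
Dkk2 at chr3:132085042-132085341 on the plus strand: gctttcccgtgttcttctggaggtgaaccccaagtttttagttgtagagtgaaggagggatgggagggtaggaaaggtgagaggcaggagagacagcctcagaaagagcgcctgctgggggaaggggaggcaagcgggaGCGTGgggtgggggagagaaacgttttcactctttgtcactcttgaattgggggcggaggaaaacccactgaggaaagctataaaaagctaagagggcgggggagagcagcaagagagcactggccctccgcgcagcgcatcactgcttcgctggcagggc
Wnt4 at chr4:137277385-137277684 on the plus strand: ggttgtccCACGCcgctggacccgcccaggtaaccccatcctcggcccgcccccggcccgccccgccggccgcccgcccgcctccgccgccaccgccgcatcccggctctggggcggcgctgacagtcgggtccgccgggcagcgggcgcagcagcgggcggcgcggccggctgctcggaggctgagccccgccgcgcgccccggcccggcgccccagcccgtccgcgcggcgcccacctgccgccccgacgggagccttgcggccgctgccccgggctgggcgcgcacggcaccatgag
Sfrp5 at chr19:42202203-42202502 on the minus strand: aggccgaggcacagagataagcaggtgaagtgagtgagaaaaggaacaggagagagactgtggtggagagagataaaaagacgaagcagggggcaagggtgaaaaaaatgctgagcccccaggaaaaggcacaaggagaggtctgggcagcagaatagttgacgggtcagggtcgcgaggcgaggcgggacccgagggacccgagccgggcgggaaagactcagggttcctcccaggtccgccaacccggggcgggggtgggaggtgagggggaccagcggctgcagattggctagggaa
The Dkk2 window held 1 AhR motif, the Wnt4 window held 1 on the opposite strand (CACGC), and the Sfrp5 window held neither motif. The 25 members with an entry had 28 promoters, of which 15 held GCGTG and 4 held CTTTGA. Over all 32851 promoters of the same length, GCGTG was present in 32.4% and CTTTGA in 16%. These matches are letters in a window and do not show binding.

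DNCB on the low-ligand diet changed 4 of the 29 tested members (LowAhR+AD against LowAhR), and 3 of the 4 were Sfrp genes. Sfrp1 rose 3.24-fold and the receptor Fzd2 rose 1.82-fold, while Sfrp4 fell to 0.0873 and Sfrp5 to 0.218 of their LowAhR levels. The 4 calls were 13.8% of the tested members, close to the 12.6% of all rows called in the same comparison (6.42% higher and 6.21% lower). The groups did not overlap for 8 members (27.6%; 3 higher and 5 lower), against 18.8% of all rows. The median log2 fold change was 0.39 over the members and 0.038 over all rows. The 0.39 also held with Wnt10b, which had no counts in LowAhR, set against 3 counts per LowAhR library.

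Sfrp1, a secreted Wnt antagonist (chromosome 8, 23411502 to 23449632, plus strand, mm10), was 28.4, 60.5, 73.1 and 82.5 CPM in the LowAhR libraries and 400, 152, 88.3 and 151 CPM in the LowAhR+AD libraries. The LowAhR+AD values all exceeded the LowAhR values, and replicate 1 was far above the rest. The log2 fold change was 1.69 ± 0.41 (adjusted p = 0.0125), and without LowAhR+AD replicate 1 it was 1.09 (adjusted p = 0.0411). The Cont libraries held 35.8, 74.0, 89.0 and 62.9 CPM, a range that met LowAhR+AD only at its lowest library. The log2 fold change of LowAhR+AD against Cont was 1.60 ± 0.41 (adjusted p = 0.00997), and 0.98 without that replicate (adjusted p = 0.0399).

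Sfrp4, a relative of Sfrp1 best known from bone and connective tissue (chromosome 13, 19623104 to 19632994, plus strand), moved the other way. The LowAhR libraries held 33.7, 23.8, 14.4 and 11.6 CPM and the LowAhR+AD libraries 1.68, 0.821, 0.777 and 4.02 CPM. No LowAhR+AD library reached the lowest LowAhR library. The log2 fold change was -3.51 ± 0.64 (adjusted p = 0.00242). Cont libraries held 12.6, 64.5, 27.9 and 65.7 CPM, and against them LowAhR+AD was lower by -4.54 ± 0.67 on the log2 scale (adjusted p = 0.000259). Leaving out LowAhR+AD replicate 4, the highest library of its group, moved these values to -4.24 and -5.27 (adjusted p = 0.00189 and 0.000363). Sfrp4 had the lowest adjusted p of the members in both comparisons.

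Sfrp5, an inhibitor also known as a product of fat tissue (chromosome 19, 42197971 to 42202252, minus strand), stood at 16.6, 16.3, 23.9 and 31.6 CPM in the LowAhR libraries and 3.13, 5.17, 3.58 and 7.39 CPM in the LowAhR+AD libraries. The groups were apart, and the difference was -2.20 ± 0.45 on the log2 scale (adjusted p = 0.00487). In the Cont libraries it was 14.6, 9.95, 5.80 and 6.82 CPM, below every LowAhR library. The change from Cont to LowAhR+AD was -0.95 ± 0.44 and was not called (adjusted p = 0.137). The LowAhR level was thus the highest of the 4 groups, and the fall under DNCB was measured from it.

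Sfrp2, the remaining member of the family, was not called in any comparison. Its level was 34.1 ± 39.4 CPM in Cont, 26.4 ± 4.19 in LowAhR, 18.1 ± 16.2 in LowAhR+AD and 12.1 ± 6.61 in LowAhR+AD+BJ. The large SD in Cont came from replicate 2, at 92.6 CPM.

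**Figure D1:**
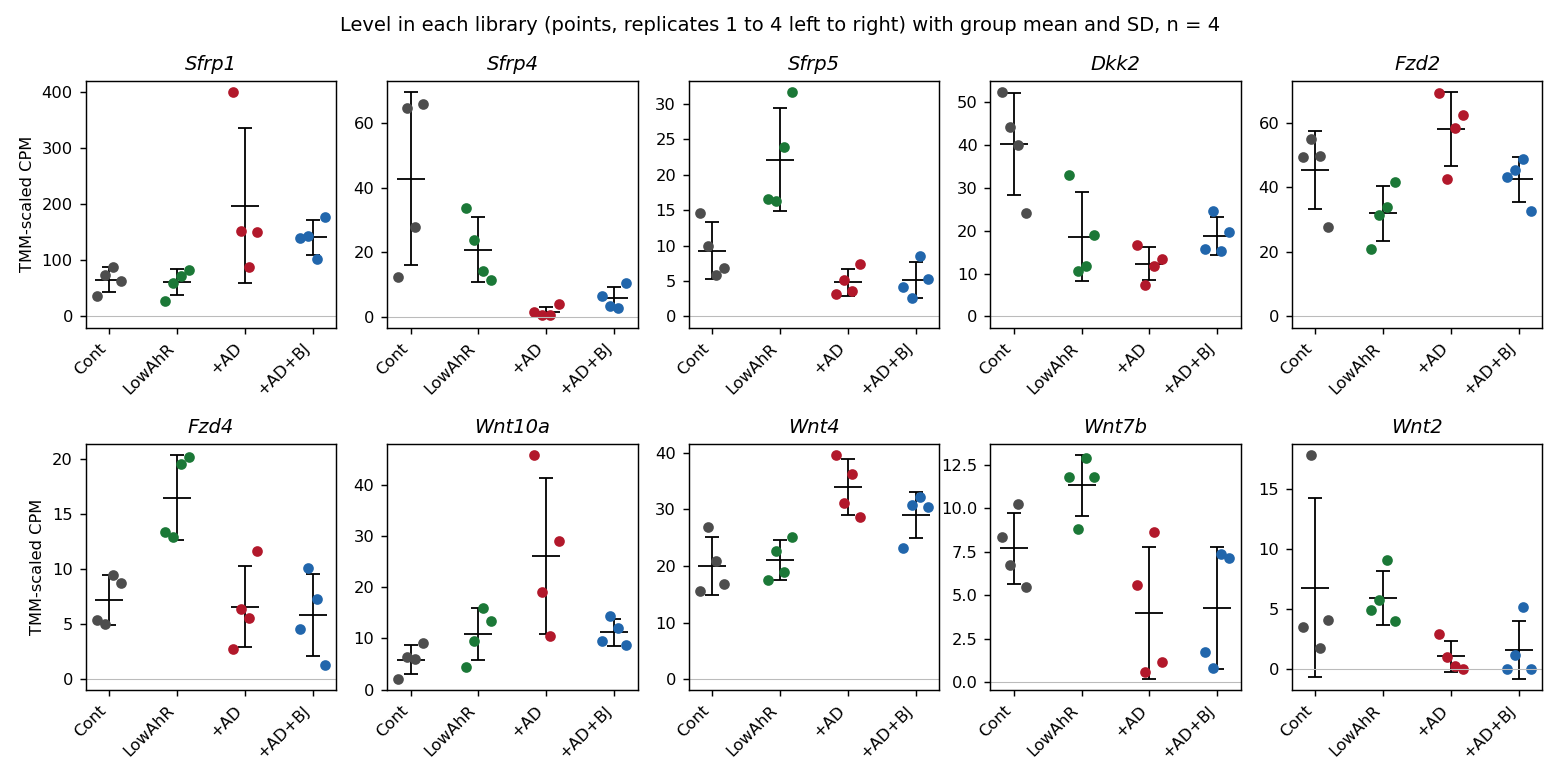
Levels of 10 members in CPM (vertical axis, linear, one scale per gene) in each of the 16 libraries, by group (horizontal axis; +AD is LowAhR+AD and +AD+BJ is LowAhR+AD+BJ), with points for libraries, the horizontal bar for the mean and the whiskers for the SD. Sfrp1 rises from 28.4 to 82.5 CPM in LowAhR to 88.3 to 400 CPM in LowAhR+AD, while Sfrp4 and Sfrp5 fall below every LowAhR library.

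The make-up of the Sfrp reads in each library showed the same shift. The kit reads about 1 fragment near the 3′ end of each transcript, so reads of different genes can be set side by side only roughly, and the shares follow from the levels already given and are a description with no test. Sfrp1 made up 46.5% ± 14.7 of the Sfrp reads in Cont and 45.5% ± 12.4 in LowAhR, but 85.1% ± 13.5 in LowAhR+AD and 85.4% ± 4.35 in LowAhR+AD+BJ. Sfrp4 went from 26.7% ± 10.9 in Cont and 17.4% ± 11.2 in LowAhR to 0.951% ± 0.924 in LowAhR+AD and 3.48% ± 1.51 in LowAhR+AD+BJ. Sfrp5 was 8.28% ± 8.08, 16.7% ± 3.00, 2.70% ± 1.47 and 3.37% ± 2.28 in the same order. The Sfrp1 share lay between 27.3% and 65.2% in the 8 libraries without DNCB and between 65.4% and 96.0% in the 8 with it.

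**Figure D2:**
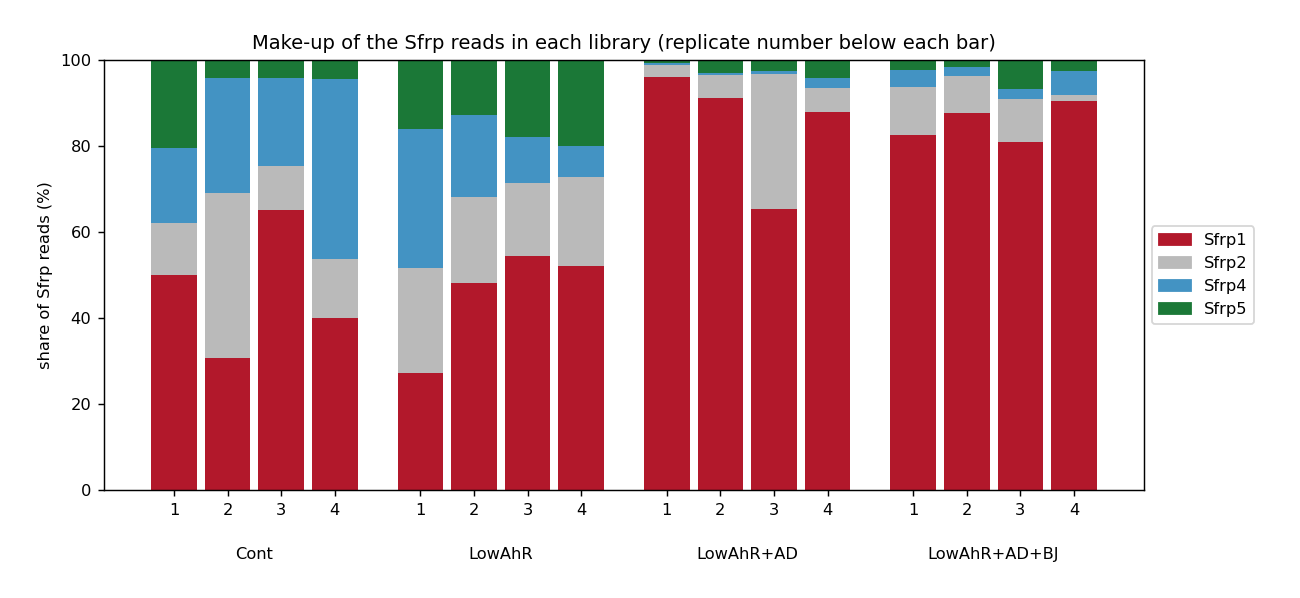
Share of the Sfrp reads (vertical axis, percent) taken by each of the 4 Sfrp genes in each library (bars, with the replicate number and group below). Sfrp1 holds 65.4% to 96.0% in the DNCB libraries and at most 65.2% in the others, with LowAhR+AD replicate 3 the lowest of the DNCB libraries because its Sfrp2 share is 31.3%.

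Of the Dickkopf inhibitors, Dkk2 (chromosome 3, 132085292 to 132180304, plus strand; promoter above) was called in 1 comparison, LowAhR+AD against Cont. The Cont libraries held 52.4, 44.3, 40.1 and 24.2 CPM, the LowAhR libraries 33.1, 10.6, 11.8 and 19.0, and the LowAhR+AD libraries 16.7, 7.47, 11.7 and 13.5. All LowAhR+AD libraries lay below all Cont libraries, and LowAhR lay between and overlapped both. The log2 fold change from Cont to LowAhR+AD was -1.70 ± 0.37 (adjusted p = 0.00356). The steps that make it up were -1.11 ± 0.37 from Cont to LowAhR (adjusted p = 0.166) and -0.59 ± 0.36 from LowAhR to LowAhR+AD (adjusted p = 0.305), neither of which was called. Dkk3, a divergent member of the family, had 43.6 ± 14 CPM in LowAhR and 76.6 ± 19.9 in LowAhR+AD (log2 fold change 0.81 ± 0.28, adjusted p = 0.0656). Dkk1, the inhibitor most often linked to hair follicle regression, had 10 counts in all 16 libraries and was not tested.

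Among the receptors, Fzd2 (chromosome 11, 102604396 to 102608058, plus strand), which serves both β-catenin and Wnt5a signalling, was the only one of 10 called. It stood at 21.0, 31.5, 33.8 and 41.5 CPM in LowAhR and at 69.2, 42.5, 58.3 and 62.6 CPM in LowAhR+AD. The groups were apart, though their nearest libraries lay close together. The log2 fold change was 0.86 ± 0.26 (adjusted p = 0.0341), and without LowAhR+AD replicate 1 it was 0.76 with the call lost (adjusted p = 0.0675). The call was also lost without LowAhR+AD replicate 3 or 4 and without LowAhR replicate 1, 2 or 3, with the adjusted p between 0.052 and 0.109. The Cont libraries, at 49.4, 55.0, 49.6 and 27.7 CPM, overlapped LowAhR+AD (0.36 ± 0.25, adjusted p = 0.352).

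Fzd4 (chromosome 7, 89404355 to 89413134, plus strand), also the receptor of Norrin in blood vessels, was highest in LowAhR, as Sfrp5 was, but edgeR did not call it. It was 5.39, 5.04, 9.50 and 8.74 CPM in Cont, 13.4, 12.9, 19.5 and 20.2 in LowAhR, 2.75, 6.40, 5.60 and 11.6 in LowAhR+AD, and 4.56, 10.1, 7.31 and 1.31 in LowAhR+AD+BJ. Every LowAhR library exceeded every library of the other 3 groups. The log2 fold changes were 1.20 ± 0.53 from Cont to LowAhR (adjusted p = 0.321) and -1.32 ± 0.53 from LowAhR to LowAhR+AD (adjusted p = 0.111). The second was called with limma voom (-1.49, adjusted p = 0.0373), and DESeq2 called LowAhR+AD+BJ lower than LowAhR (-1.52, adjusted p = 0.039).

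LowAhR+AD replicate 1 set the mean of 2 further receptors. Fzd8 was 25.9 CPM there against 3.45, 6.68 and 6.59 CPM in the other LowAhR+AD libraries, and LowAhR held 3.69 ± 1.17. Its log2 fold change was 1.53 ± 0.58 (adjusted p = 0.0895) and 0.58 without that library. Fzd7 was 50.5 CPM there against 7.15 to 15 in the other LowAhR+AD libraries. Against Cont, Fzd7 was not called with all 16 libraries (log2 fold change -0.06 ± 0.44, adjusted p = 0.95). Without LowAhR+AD replicate 1 it was called lower than in Cont. Fzd5 had 4.46 ± 4.42 CPM in LowAhR and 10.9 ± 3.31 in LowAhR+AD, and was not called. Every LowAhR+AD library exceeded the Cont libraries, which held 0 to 5.39 CPM. edgeR did not call that difference (1.72 ± 0.84, adjusted p = 0.154), but limma voom called it. The levels of Fzd1, Fzd3, Fzd6 and Fzd10 in LowAhR were 13.3 ± 5.31, 14.1 ± 6.48, 25.1 ± 14.3 and 16.8 ± 4.77 CPM, with LowAhR+AD at 13.9 ± 7.29, 15.1 ± 4.29, 26.4 ± 14.1 and 27.3 ± 12.0 CPM. Fzd9 had group means of 0.169 to 2.98 CPM.

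No Wnt ligand was called by edgeR between LowAhR+AD and LowAhR with all 16 libraries, whereas Wnt10a and Wnt4 were called higher in LowAhR+AD than in Cont. Wnt10a (chromosome 1, 74791516 to 74804179, plus strand), a canonical ligand whose loss affects hair, teeth and sweat glands, was 2.05, 6.46, 5.92 and 9.10 CPM in Cont and 4.46, 9.47, 16 and 13.5 in LowAhR. It reached 45.8, 19.0, 10.4 and 29.0 CPM in LowAhR+AD. All LowAhR+AD libraries exceeded all Cont libraries, and 3 of 4 exceeded all LowAhR libraries. On the log2 scale the rise was 2.14 ± 0.51 against Cont (adjusted p = 0.00619) and the uncalled difference from LowAhR 1.26 ± 0.49 (adjusted p = 0.0978). Without LowAhR+AD replicate 1 these were 1.71 (adjusted p = 0.0172) and 0.84 (adjusted p = 0.289), and without LowAhR+AD replicate 3 the difference from LowAhR was called (1.53, adjusted p = 0.0454).

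Wnt4 (chromosome 4, 137277489 to 137299726, plus strand; promoter above), an epidermal ligand, was 15.5, 26.9, 20.9 and 16.8 CPM in Cont, 17.4, 22.7, 18.9 and 25.2 in LowAhR, and 39.6, 31.2, 36.2 and 28.6 in LowAhR+AD. LowAhR+AD did not overlap either group. On the log2 scale it was higher by 0.76 ± 0.24 against Cont (adjusted p = 0.0288) and 0.69 ± 0.24 against LowAhR (adjusted p = 0.0648), which DESeq2 called (adjusted p = 0.0473). The call against Cont was lost without LowAhR+AD replicate 1, without LowAhR+AD replicate 3 and without Cont replicate 1, 3 or 4, with the log2 fold change between 0.66 and 0.94 when any 1 library was left out.

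Wnt7b and Wnt2 were lower in every LowAhR+AD library than in any LowAhR library, and edgeR called neither. Wnt7b (chromosome 15, 85535437 to 85582473, minus strand), a ligand of the epidermis and follicle, was 11.8, 8.83, 12.9 and 11.8 CPM in LowAhR and 5.57, 0.574, 8.63 and 1.20 CPM in LowAhR+AD (log2 fold change -1.50 ± 0.74, adjusted p = 0.192). With limma voom it was called lower (-2.15, adjusted p = 0.049). A gene on the opposite strand overlaps it and has its own row, and the strand setting of the counting is not given in the sources used here, so the reads of the 2 genes may not be fully separated. Wnt2 (chromosome 6, 17988940 to 18030585, minus strand), a ligand of stromal and endothelial cells in several tissues, was 4.87, 5.76, 9.11 and 3.94 CPM in LowAhR and 2.90, 0.985, 0.233 and 0 CPM in LowAhR+AD (-2.51 ± 1.33, adjusted p = 0.23).

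Wnt5a, the main non-canonical ligand, was 12.2 ± 4.92 CPM in LowAhR and 19.5 ± 8.60 in LowAhR+AD, and Wnt5b 2.11 ± 1.16 and 6.19 ± 4.34 CPM. Wnt3, an epidermal ligand of the growing follicle, was 23.5 ± 6.37 CPM in Cont, 16.2 ± 4.73 in LowAhR, 11.3 ± 4.91 in LowAhR+AD and 8.27 ± 6.92 in LowAhR+AD+BJ. By edgeR with all 16 libraries none of the 3 ligands was called in any comparison, while DESeq2 and limma voom called Wnt5b higher in LowAhR+AD than in Cont. As with Wnt7b, a gene on the opposite strand with its own row (Fbxl14) overlaps Wnt5b, so their reads may not be fully separated. Wnt6, Wnt9a and Wnt16 had group means of 0.303 to 7.80 CPM, and Wnt3a and Wnt11 of 0.255 to 2.34 CPM. Wnt10b, an inducer of the follicle's growth phase, had 0 counts in all 4 LowAhR libraries and 1.21 ± 0.85 CPM in LowAhR+AD. Set against 3 counts per LowAhR library, the LowAhR+AD mean was 3.15-fold higher, and edgeR did not call the difference (adjusted p = 0.104). That ratio is not a lower bound. In LowAhR replicate 2, 13.6% of the genes predicted at 20 to 40 counts had 0 counts, and LowAhR+AD replicate 4 also held 0 Wnt10b counts. Wnt2b, Wnt7a and Wnt9b had 71, 17 and 16 counts over all libraries and were not tested.

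**Figure D3:**
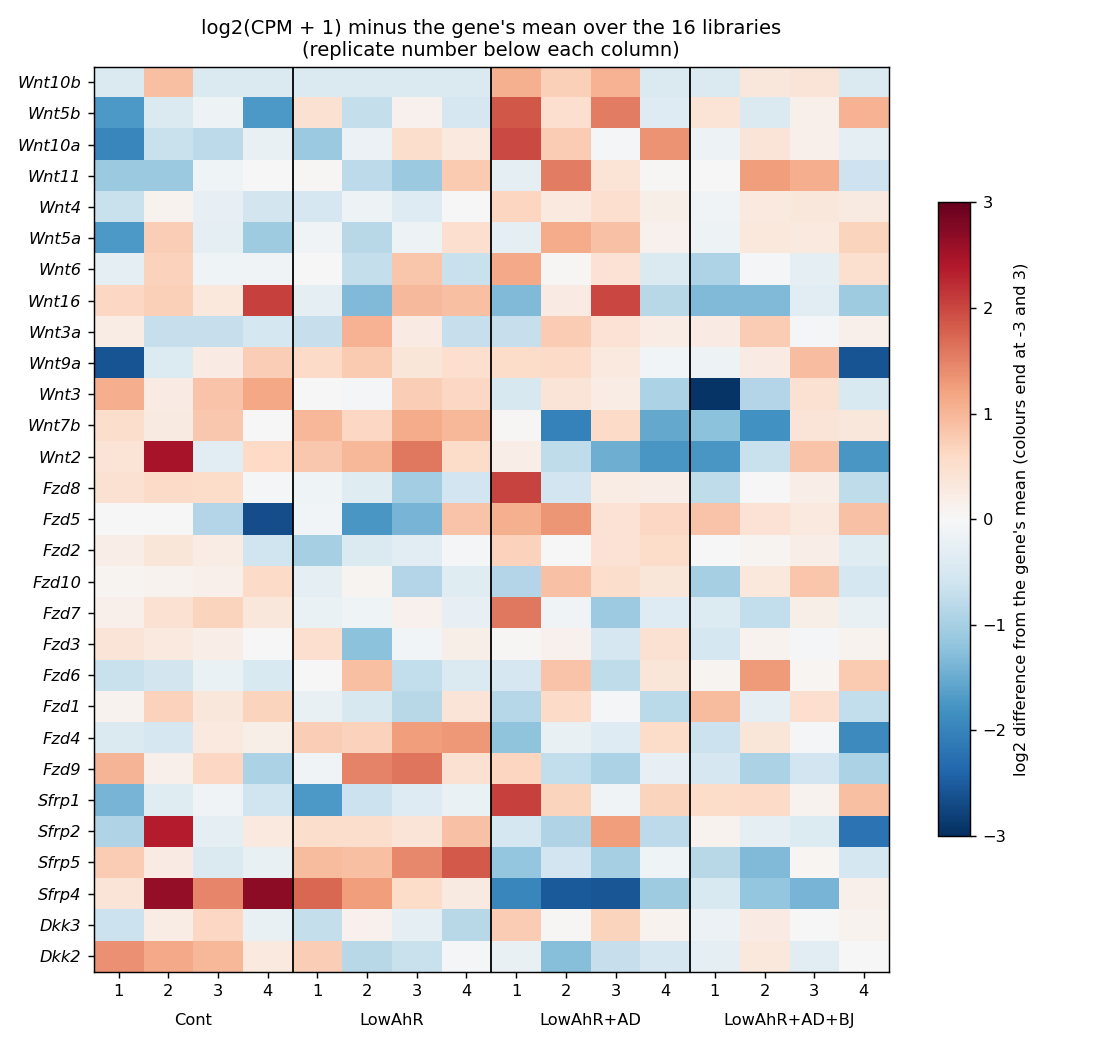
Each tested member (rows, by family) in each library (columns, by group and replicate), coloured by log2(CPM + 1) minus the gene's mean over the 16 libraries, with red above and blue below the mean and colours ending at -3 and 3. Sfrp4 and Sfrp5 are blue in every LowAhR+AD column and Sfrp1 is red in 3 of the 4, and LowAhR+AD replicate 1 is the reddest column for Sfrp1, Fzd7, Fzd8 and Wnt10a.

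The low-ligand diet with its bedding (LowAhR against Cont) gave no call among the 29 members and 0% called among all rows. Diet and bedding changed together and cannot be told apart. DESeq2 and limma voom also called 0 members. At an unadjusted p under 0.05 edgeR gave 3 members (10.3%), namely Dkk2, Fzd4 and Sfrp5, against 13.7% of all rows. The groups did not overlap for 4 members (13.8%), against 11.3% of all rows. Fzd4 and Sfrp5 were higher in every LowAhR library and Fzd7 and Fzd8 lower. Sfrp5 differed by 1.25 ± 0.44 on the log2 scale (adjusted p = 0.194), with an exact permutation p of 0.0286, which is the smallest that 4 libraries against 4 can give. Fzd4, Fzd7 and Fzd8 had the same permutation p. Groups of 4 that do not overlap always give it, so it adds nothing to the lack of overlap. Sfrp1 differed by -0.10 ± 0.40 and Wnt4 by 0.07 ± 0.24.

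Against Cont, LowAhR+AD had 5 of 29 members called (17.2%), with Sfrp1, Wnt10a and Wnt4 higher and Sfrp4 and Dkk2 lower. The share was 21.8% over all rows (12.3% higher and 9.47% lower). The groups did not overlap for 5 members (17.2%) and for 24.7% of all rows. This comparison and the one with LowAhR share the LowAhR+AD libraries. Sfrp1 and Sfrp4 were called in both.

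BJIKT gave no call among the members (LowAhR+AD+BJ against LowAhR+AD), with 0% called among all rows, and DESeq2 and limma voom also called 0 members. At an unadjusted p under 0.05 edgeR gave 3 members (10.3%), against 9.46% of all rows, and 0 members had groups apart, against 5.08% of all rows. The 3 were Sfrp4, Wnt10a and Fzd8. Sfrp4 was 6.66, 3.67, 2.96 and 10.7 CPM in LowAhR+AD+BJ, a difference of 1.71 ± 0.61 on the log2 scale (adjusted p = 0.498), and 2 of 4 libraries lay above all LowAhR+AD libraries. Wnt10a was 9.58, 14.5, 12.1 and 8.67 CPM (-1.22 ± 0.49, adjusted p = 0.5), with 2 of 4 libraries below all LowAhR+AD libraries, and -0.81 without LowAhR+AD replicate 1. Fzd8 was 4.54 ± 1.90 CPM against the 10.7 ± 10.3 that replicate 1 set in LowAhR+AD.

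The other members given by library were not called and overlapped LowAhR+AD. Sfrp1 was 140, 144, 102 and 178 CPM in LowAhR+AD+BJ (-0.49 ± 0.40, adjusted p = 0.721), and without LowAhR+AD replicate 1 the difference was 0.10. Sfrp5 was 4.11, 2.65, 8.48 and 5.35 CPM (0.10 ± 0.44). Dkk2 was 15.7, 24.7, 15.2 and 19.8 CPM (0.61 ± 0.36, adjusted p = 0.601) and Fzd2 43.3, 45.5, 48.7 and 32.7 CPM (-0.45 ± 0.25, adjusted p = 0.577). Wnt4 was 23.1, 30.7, 32.1 and 30.4 CPM (-0.22 ± 0.24). Wnt7b was 1.73, 0.815, 7.39 and 7.16 CPM and Wnt2 0, 1.12, 5.13 and 0 CPM, both overlapping LowAhR+AD.

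Set against LowAhR, the BJIKT group had 1 member called (3.45%), Sfrp5, which was lower by -2.10 ± 0.45 on the log2 scale (adjusted p = 0.00996). Over all rows 6.77% were called (3.64% higher and 3.12% lower). The groups did not overlap for 7 members (24.1%), against 17.1% of all rows: Sfrp1 was higher and Sfrp2, Sfrp4, Sfrp5, Fzd4, Fzd9 and Wnt7b were lower in every LowAhR+AD+BJ library. Sfrp1 differed by 1.20 ± 0.41 on the log2 scale (adjusted p = 0.082) and Sfrp4 by -1.80 ± 0.59 (adjusted p = 0.0748).

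**Figure D4:**
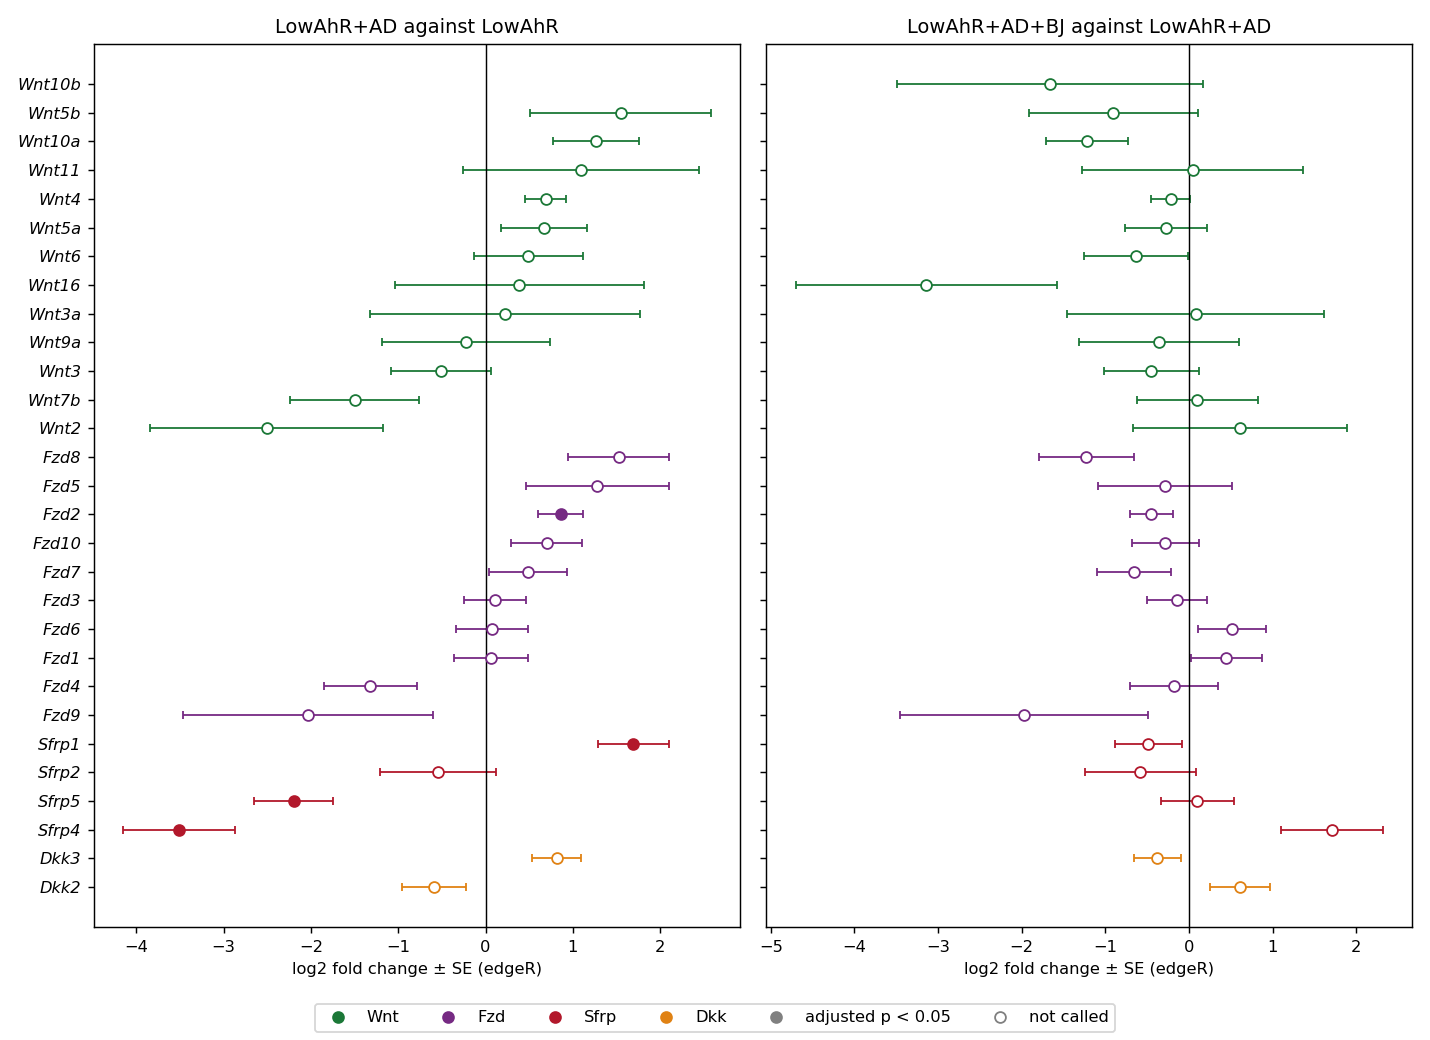
Log2 fold change ± SE (horizontal axis) of the tested members (vertical axis, coloured by family) for LowAhR+AD against LowAhR on the left and LowAhR+AD+BJ against LowAhR+AD on the right. Filled points are called (Fzd2, Sfrp1, Sfrp4 and Sfrp5 on the left, none on the right), and Wnt10b is left out on the left because LowAhR had no counts.

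The rest of the pathway was read from lists of 60 genes, of which 56 were tested. In LowAhR+AD against LowAhR, 11 of the 56 (19.6%) were called higher and 0 lower, beside 6.42% and 6.21% of all rows. Their median log2 fold change was 0.36. In LowAhR+AD against Cont, 11 were called higher and 6 lower beside 12.3% and 9.47% of all rows, the transducers with 6 higher and 2 lower and the readouts with 3 higher and 2 lower, and in LowAhR+AD+BJ against LowAhR 4 were called higher and 1 lower beside 3.64% and 3.12%. The genes named next are those of LowAhR+AD against LowAhR. In that comparison the log2 fold change was above 0 for 2 of 2 secretion genes, 17 of 21 transducers and 6 of 8 other inhibitors. It was above 0 for 5 of 9 genes of the R-spondin list, 4 of 8 co-receptors and 4 of 8 readouts. Of the 2 genes for Wnt secretion, Porcn, the enzyme that adds the lipid to Wnts, rose from 7.44 ± 3.13 to 42.0 ± 27.4 CPM (2.49 ± 0.44, adjusted p = 0.00193), and by 1.95 on the log2 scale without LowAhR+AD replicate 1, which held 81.4 CPM. Of the 8 co-receptors tested, Ptk7, a receptor of planar cell polarity, rose from 23.1 ± 7.06 to 55.7 ± 18.8 CPM (1.27 ± 0.30, adjusted p = 0.0116). Among the 9 R-spondins, receptors and ubiquitin ligases, Lgr5, the R-spondin receptor of follicle stem cells, was called at 1.59 ± 0.50 (adjusted p = 0.0434). Its LowAhR+AD libraries held 174, 35.4, 38.5 and 31.6 CPM, and without replicate 1 the log2 fold change was 0.60 with the call lost (adjusted p = 0.297). The Lgr5 call was lost without any 1 of 9 libraries.

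Of the 8 other inhibitors tested, 2 were called. Wif1, which binds Wnts, rose from 6.98 ± 5.33 to 38.0 ± 14.6 CPM (2.44 ± 0.61, adjusted p = 0.0149), and Draxin, a secreted guidance protein that antagonises Wnt, from 0.119 ± 0.239 to 5.93 ± 4.86 CPM (adjusted p = 0.0329). The transducers had 3 of 21 called: Ctnnb1, which encodes β-catenin, went from 544 ± 88.5 to 1117 ± 111 CPM (1.04 ± 0.20, adjusted p = 0.00318), and the polarity genes Vangl1 and Prickle1 rose by 1.55 ± 0.35 and 1.43 ± 0.43. Vangl1 was 120 CPM in LowAhR+AD replicate 1 and rose by 1.05 without it (adjusted p = 0.0215). Of 8 target genes used as readouts 3 were called. Nkd2, a feedback regulator that binds Dishevelled, rose from 43.8 ± 3.27 to 144 ± 23.2 CPM (1.72 ± 0.21, adjusted p = 0.000148), Ccnd1 (cyclin D1) by 1.16 ± 0.29 and Cd44 by 1.38 ± 0.28. Without LowAhR+AD replicate 1 the call of Prickle1 was lost (1.13, adjusted p = 0.0958), as it was without LowAhR+AD replicate 2 or LowAhR replicate 1, 2 or 3. Draxin lost its call without LowAhR+AD replicate 2 or LowAhR replicate 1, 2 or 3, and Ccnd1 without LowAhR replicate 1, where its adjusted p was 0.0569. With only the 8 libraries of the contrast in the fit, the calls of Ptk7, Lgr5, Wif1, Vangl1, Prickle1 and Ccnd1 were lost, with adjusted p between 0.0573 and 0.136.

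Axin2 and Lef1 were called against Cont but not against LowAhR. Axin2, a feedback target widely used to report β-catenin activity, was 17.3, 9.47, 12.9 and 11 CPM in LowAhR and 0.382, 5.09, 8.16 and 1.69 CPM in LowAhR+AD. No LowAhR+AD library reached a LowAhR library, but the difference was not called (-1.72 ± 0.68, adjusted p = 0.103), whereas against Cont it was called lower at -1.95 (adjusted p = 0.049), a call that was lost without any 1 of 14 libraries. Lef1, a TCF/LEF factor of the follicle matrix, was 2.57, 2.69, 0.520 and 9.31 CPM in LowAhR and 11.4, 16.1, 13 and 13.8 CPM in LowAhR+AD (1.84 ± 0.82, adjusted p = 0.148), and was called higher against Cont at 2.50 (adjusted p = 0.0406), a call lost without any 1 of 6 libraries. The R-spondins Rspo1, Rspo2, Rspo3 and Rspo4 stood at 25.1, 0.786, 9.46 and 0.467 CPM in LowAhR and 23.1, 1.31, 5.14 and 3.46 CPM in LowAhR+AD, and the inhibitors Notum and Frzb at 0.417 and 2.87 against 1.10 and 3.03 CPM. None of these 6 was called.

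BJIKT gave 0 calls in the pathway lists against LowAhR+AD, where 13 of 56 genes (23.2%) had an unadjusted p under 0.05 beside 9.46% of all rows. Porcn was 14.4 ± 3.13 CPM with BJIKT (-1.54 ± 0.42 against LowAhR+AD, adjusted p = 0.498, and -1.001 without LowAhR+AD replicate 1). Wif1 was 13.5 ± 2.30 CPM (-1.49 ± 0.59, adjusted p = 0.5) and Lef1 6.39 ± 3.04 CPM (-1.09 ± 0.79, adjusted p = 0.676). For each of these genes every LowAhR+AD+BJ library lay below every LowAhR+AD library. Groups were apart for 1 of 2 secretion genes, 1 of 8 other inhibitors and 2 of 21 transducers. The other lists had 0, and the share of all rows was 5.08%. Nkd2 was 97.4 ± 23.6 CPM (-0.56 ± 0.20) and Ccnd1 74.2 ± 20.7 CPM (-0.79 ± 0.29), each overlapping LowAhR+AD. Ccnd1 was 201 CPM in LowAhR+AD replicate 1, and its difference ran from -0.99 to -0.50 with any 1 library left out. Lgr5 was 32.5 ± 5.23 CPM (-1.10 ± 0.49), with a range of -1.35 to -0.12 when any 1 library was left out. Ctnnb1 and Cd44 were 952 ± 65.2 and 237 ± 73.0 CPM.

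Markers of several cell types moved between the same groups. In whole skin, fewer cells of a type and less RNA per cell cannot be told apart. Adipocyte markers were lower for 7 of 9 in LowAhR+AD against LowAhR, and their summed level was 2143 to 3733 CPM in Cont, 4938 to 6071 in LowAhR, 278 to 1827 in LowAhR+AD and 972 to 1606 in LowAhR+AD+BJ. Skeletal muscle markers were lower for 10 of 10, at 7898 to 14082 CPM in Cont, 11043 to 26937 in LowAhR, 552 to 4527 in LowAhR+AD and 3290 to 13024 in LowAhR+AD+BJ. By group mean, both lists were highest in LowAhR and lowest in the DNCB groups, as were Sfrp5, Fzd4, Fzd9 and Wnt7b. Fibroblast markers were lower for 3 of 9 (29314 to 55640 CPM in LowAhR and 4112 to 23303 in LowAhR+AD). No marker of these 3 lists was at 0 in all libraries of a group.

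Other markers were higher under DNCB. All 4 markers of activated keratinocytes were called higher in LowAhR+AD against LowAhR (526 to 1735 CPM in LowAhR and 11012 to 32999 in LowAhR+AD). Markers of the growing hair follicle were called higher for 2 of 14 against LowAhR and for 13 of 14 against Cont. Their summed levels were 71.0 to 999 CPM in Cont, 123 to 9613 in LowAhR, 6883 to 23930 in LowAhR+AD and 6036 to 16889 in LowAhR+AD+BJ. Follicle stem cell and outer root sheath markers were called higher for 3 of 6 and lower for 1, basal and suprabasal keratinocyte markers higher for 2 of 8 and lower for 1, and dermal papilla markers higher for 1 of 6 tested. Leukocyte markers were lower for 2 of 7, sebaceous gland markers for 1 of 6 tested and endothelial markers for 0 of 6. The part of these markers in the differences of the Wnt genes was not tested.

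**Figure D5:**
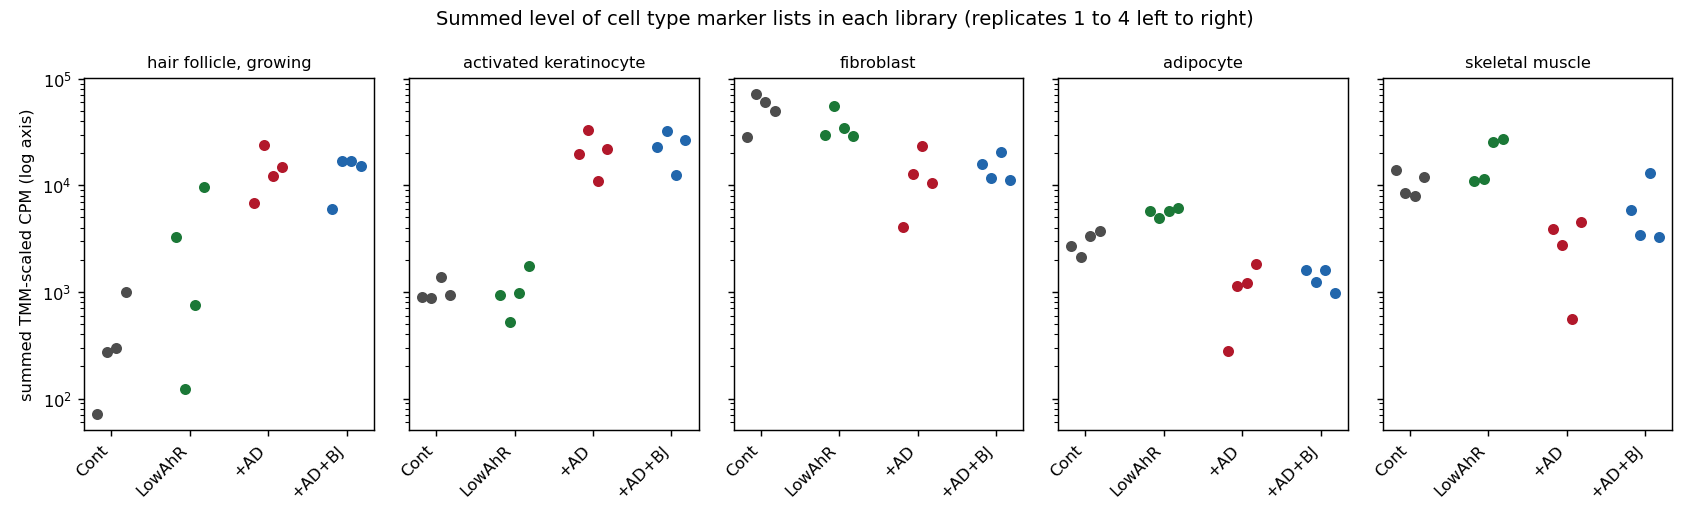
Summed CPM (vertical axis, log scale) of 5 marker lists in each library (points), by group. By group mean, growing follicle and activated keratinocyte markers are higher in both DNCB groups than in Cont and LowAhR. Fibroblast, adipocyte and muscle means are lower there. Single libraries overlap, with growing follicle sums up to 9613 CPM in LowAhR and muscle sums up to 13024 CPM in LowAhR+AD+BJ. Adipocyte sums are 4938 to 6071 CPM in LowAhR and 278 to 1827 in LowAhR+AD.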

How the data were processed

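Total RNA of dorsal skin was made into libraries with a QuantSeq 3′ kit and read as single ends of 75 bases. The deposited values are raw counts per gene, 1 table per library, made by the authors. The submitters' processing notes name Bowtie2, bedtools and mm10, and the annotation and the strand setting of the counting are not given in the sources used here. Without strand, reads of overlapping genes cannot be told apart.

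Counts were tested with edgeR 4.0.16 (R 4.3.3): filterByExpr by group (minimum count 10, minimum total 15), TMM scaling, 1 quasi-likelihood model over all 16 libraries, 5 contrasts, and Benjamini-Hochberg adjustment over 14854 rows. The SE is the log2 fold change divided by the square root of F. Single genes also had a two-sided exact permutation test on log2 CPM with a prior count of 2. DESeq2 1.42.0 and limma 3.58.1 (voom) were alternatives, beside other scalings, filters, the 8 libraries of a contrast alone, the replicate number as a block, and leaving out each library. The labels do not say that same-numbered libraries share an animal or day, and their correlations (-0.055 to 0.167 over 24 pairs, 3 over 0.1) did not pair them. Nothing in the labels says whether libraries of a group came from separate animals, so p-values measure the spread between these libraries. Libraries of a group differed by more than sampling noise (chi-square per degree of freedom 16.9 to 300).

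The members and lists were chosen with earlier results of these data known. Every tested member is named. Values in every library are given for members called in any contrast, or with groups apart in LowAhR+AD against LowAhR and a mean of at least 5 CPM in a group. Of the pathway lists, genes called in LowAhR+AD against LowAhR or LowAhR+AD+BJ against LowAhR+AD are named, up to 3 in each direction per list, with 11 set genes (Axin2, Lef1, Ctnnb1, Lgr5, Wif1, Notum, Frzb and Rspo1 to Rspo4). Positions are from GENCODE vM21 on GRCm38 (mm10).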

Additional observations from a re-analysis of the deposited data

Results flagged for a closer look

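Single libraries stood apart from the other 3 of their group in 5 of 116 gene and group combinations, where chance flags about 1 in 20. In Cont replicate 4, Fzd10 was high at 32.0 CPM against 22.5 to 23.6, Fzd2 was low at 27.7 CPM against 49.4 to 55.0, and Fzd8 was low at 5.39 CPM against 8.09 to 8.79. Wnt10b was 1.55 CPM in Cont replicate 2 and 0 in the other Cont libraries, and 0 in LowAhR+AD replicate 4 against 1.23 to 1.83 CPM in the others. The Fzd2 range of Cont therefore reached down to LowAhR through 1 library.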

How the results depend on the processing

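Sfrp4 and Sfrp5 in LowAhR+AD against LowAhR, Dkk2, Sfrp1, Sfrp4 and Wnt10a in LowAhR+AD against Cont, and Sfrp5 in LowAhR+AD+BJ against LowAhR kept their direction and call under every alternative run. The contrast of diet and bedding (LowAhR against Cont) and the BJIKT contrast (LowAhR+AD+BJ against LowAhR+AD) had 0 members called under each. With only the 8 libraries of the contrast in the fit, LowAhR+AD against LowAhR had 2 members called (Sfrp4 and Sfrp5; Sfrp1 had adjusted p = 0.0641 and Fzd2 0.0853). DESeq2 and limma voom called 5 and 6 members there and 6 and 7 in LowAhR+AD against Cont, each including all those edgeR called. LowAhR+AD+BJ against LowAhR had 4 members called with DESeq2, 3 with only its 8 libraries, 2 with at least 10 counts in every library and 2 with the replicate block. With any 1 library left out, the counts were 3 to 5 in LowAhR+AD against LowAhR, 4 to 6 in LowAhR+AD against Cont and 1 to 2 in LowAhR+AD+BJ against LowAhR. With the replicate block, LowAhR+AD against LowAhR had 3 members called (Fzd2 lost, adjusted p = 0.0587) and LowAhR+AD+BJ against LowAhR gained Sfrp4 (adjusted p = 0.0438). The block changed no other member's call, Prickle1 (adjusted p = 0.0712) and, against Cont, Lef1 (adjusted p = 0.0519) lost theirs, and 0 of 16 libraries correlated best with their own number. The cause of these differences was not tested.

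Some uncalled log2 fold changes changed sign. With limma voom, Wnt2 was 0.30 in LowAhR against Cont and -0.24 in LowAhR+AD+BJ against LowAhR+AD, and Frzb was -0.11 in LowAhR+AD against LowAhR (-0.28 with the block). Dkk2 in LowAhR+AD+BJ against LowAhR was -0.00057 with RLE factors, -0.017 with upper-quartile factors, -0.00059 with DESeq2, -0.0045 with at least 10 counts in every library and -0.0015 with its 8 libraries alone. With 1 library left out, the ranges that crossed 0 were, in LowAhR against Cont, -0.31 to 0.14 for Sfrp1, -0.52 to 0.94 for Wnt2 and -0.037 to 0.25 for Wnt4. For Fzd4 in LowAhR+AD against Cont the range was -0.54 to 0.12. In LowAhR+AD+BJ against LowAhR+AD the ranges were -0.59 to 0.24 for Fzd4, -0.73 to 0.10 for Sfrp1, -0.26 to 0.38 for Sfrp5, -1.45 to 1.91 for Wnt2, -0.32 to 0.80 for Wnt7b and -0.0011 to 0.40 for Cd44. In LowAhR+AD+BJ against LowAhR they were -0.18 to 0.45 for Dkk2 and -0.21 to 0.29 for Wnt10a, and in LowAhR+AD against LowAhR -0.34 to 0.38 for Frzb, -0.29 to 0.055 for Rspo1 and -0.10 to 1.70 for Rspo2. Ligands with means near 1 CPM rest on few counts.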
